A study of Mus musculus with 4 samples.

Results

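The interferon regulatory factor (IRF) family was examined across age in sorted intestinal stem cells (ISCs) through 8 genes, Irf1 to Irf5 and Irf7 to Irf9, chosen by gene symbol among the 52459 genes counted. All 8 symbols were listed, and 6 of the 8 passed the filter on low counts, which left 13692 genes to test. Members were matched by name, and earlier results of these data were known when the members were chosen. ISCs came from the small intestine of wild-type (WT) female C57/Bl6 mice of 2 months (ISC_2mth, young) or 22 months (ISC_22mth, old), and no other allele or treatment distinguished the ages. Each age was represented by 2 libraries, and each library by a pool of 5 animals, so that differences between single animals cannot be seen. Cells were sorted by the SM6 strategy as CD31-, CD45-, CD24med, CD166+, CD44high, GRP78low, EPHB2high and EPCAM+, and their RNA was copied along whole transcripts by single primer isothermal amplification (SPIA) before sequencing.

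IRF proteins are transcription factors that share a DNA-binding domain with conserved tryptophans and recognize the interferon-stimulated response element (ISRE). They stand at both ends of interferon signalling. Irf3, Irf5 and Irf7 are switched on by kinases downstream of nucleic acid sensors and drive interferon genes, whereas Irf9 is part of the complex ISGF3 that carries the signal of type I and type III interferons to target genes. Irf1 is induced by interferon and NF-kB signals and activates antigen presentation and cell death genes, Irf2 binds many of the same sites and can oppose it, and Irf4 and Irf8 are best known as partners of the factor PU.1 (Spi1) in lymphoid and myeloid cells.

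Promoter sequences are shown for the members in which searched letters lay upstream of the start, since interferon, STAT and NF-kB signals are known to induce several IRF genes. A match describes the letters and not a site in use. In 11 promoter windows of the 8 genes (RefSeq, GRCm38.p6, 250 bases before to 50 bases after each start), 3 motifs were searched on both strands: the gamma-activated site (GAS) of STAT dimers as TTCNNNGAA, the ISRE core as GAAANNGAAA, and the NF-kB consensus. A GAS was found in 3 windows, 1 each of Irf1, Irf2 and Irf8, against 8.3% of all 32851 windows. The ISRE core was found in 1 window, that of Irf2 (3.44% of all windows), and the NF-kB consensus in 2, those of Irf1 and Irf2 (8.46% of all windows). No searched letters occurred in the windows of Irf3, Irf4, Irf5, Irf7 and Irf9. For Irf1 the 250 bases before the start are given, on the plus strand at chr11:53769764-53770013, with capitals marking first the GAS, 90 to 82 bases before the start, and then the NF-kB consensus, 13 to 4 bases before it.
Irf1: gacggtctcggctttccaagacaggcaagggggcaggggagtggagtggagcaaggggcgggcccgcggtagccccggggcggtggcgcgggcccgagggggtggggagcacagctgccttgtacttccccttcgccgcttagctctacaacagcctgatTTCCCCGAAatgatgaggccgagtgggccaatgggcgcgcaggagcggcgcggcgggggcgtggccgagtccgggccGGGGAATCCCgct
For Irf2, 60 bases at chr8:46739495-46739554 (plus strand) hold the ISRE core and then a GAS in capitals, the first of which lies within an exon of Gm16675, a gene on the opposite strand. For Irf8, 60 bases at chr8:120736162-120736221 (plus strand) hold a pair of GAS matches in capitals.
Irf2: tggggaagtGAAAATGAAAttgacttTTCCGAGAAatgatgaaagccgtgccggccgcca
Irf8: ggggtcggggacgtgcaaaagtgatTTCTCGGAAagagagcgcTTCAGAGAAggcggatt

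Libraries held between 11662654 and 15975698 counts. edgeR's quasi-likelihood test after TMM normalization called 309 of the 13692 genes (2.26%) at a false discovery rate (FDR) under 0.05, with 223 higher and 86 lower at 22 months. Scaling by total counts alone gave 96 higher and 4536 lower genes and moved the median over all genes to a log2 value of -0.49. Mitochondrially encoded genes took 73.8% and 72.9% of the old libraries and 62.6% and 65.7% of the young ones. Because amplified copies of 1 molecule cannot be recognized in these reads, intervals on shares of counts cover counting error only. All 13 stem cell markers passed the filter, including Lgr5 at between 2518 and 3599 counts. Of these 13, 0 were called by edgeR, with a median log2 fold change of -0.24. At an unadjusted p under 0.05, 2 of the 13 were higher and 6 lower, against 9.26% and 7.65% of all genes. Axin2 (log2 fold change -0.46, FDR = 0.051 by edgeR) and Ephb2 (-0.52, FDR = 0.058) were just above the threshold. Of 28 leukocyte markers, 12 had 0 counts in all pools, among them Spi1, Tyrobp, Cd79a, Itgax and Adgre1, and Ptprc (CD45) had 2 counts in 1 pool and 0 in the other 3. The leukocyte list summed to between 48.5 and 50.1 CPM (counts scaled to a common normalized library size) in young and between 63.6 and 65.5 CPM in old ISCs, mostly on Lcp1 and Itgam, and 2 of its 5 tested genes (Itgam and Ccr2) were called higher. Itgam overlaps Gm49368 on the same strand over 68.7% of its exonic length, and the tested Cd68 and Cd14 had log2 fold changes of -0.79 and -0.42 without a call. Of 10 stromal and endothelial markers, 9 were below the filter, and the list summed to at most 1.55 CPM in any pool.

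Of the 6 IRF genes tested, 1 was called with age, and it was lower in old ISCs. That gene was Irf1. Among all genes tested, 0.628% were called lower and 1.63% higher. At an unadjusted p under 0.05, Irf1 was again the 1 member found, against 16.9% of all genes. The sum over the 8 genes was 98.2 CPM in both young pools and 95.4 and 93.4 CPM in the old pools. In RNA of sorted pools, fewer cells that express a gene and less of its RNA per cell cannot be told apart.

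**Figure D1:**
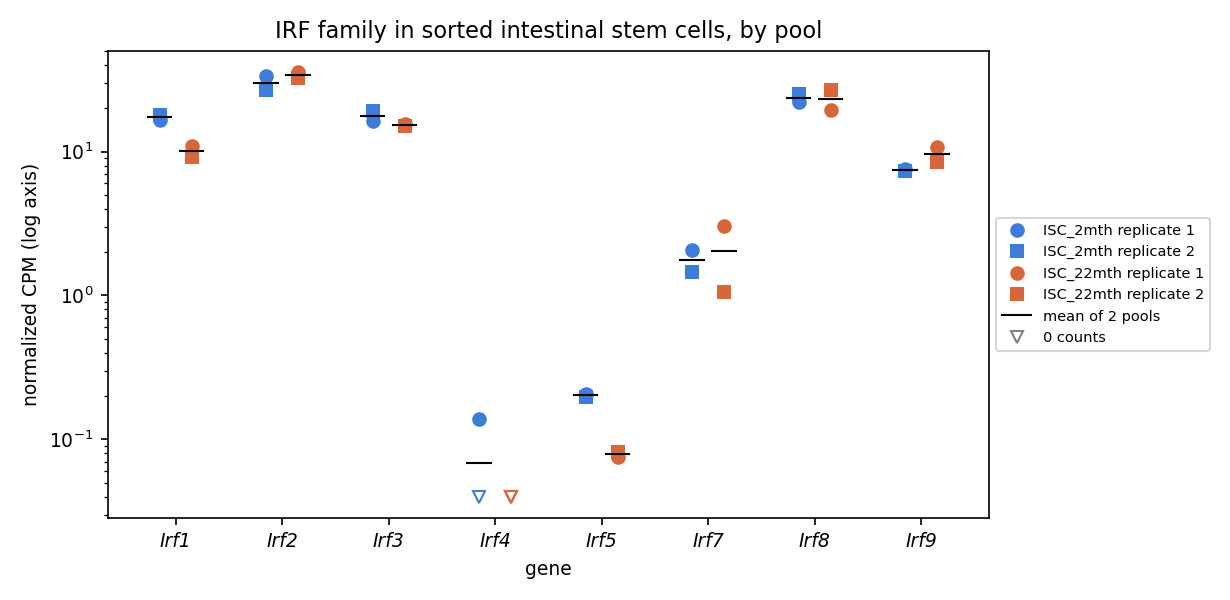
Normalized CPM (log axis) of the 8 IRF genes in the 4 pools, with blue for ISC_2mth, orange for ISC_22mth, circles for replicate 1, squares for replicate 2, black lines for the mean of 2 pools and open triangles for pools with 0 counts. Irf1 is lower in both old pools than in both young pools (9.24 and 10.9 against 16.5 and 18.1 CPM), the old pools of Irf7 lie on either side of the young ones, and Irf4 and Irf5 stay below 0.21 CPM.

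Irf1 lies on chromosome 11, plus strand, from 53770014 to 53778374 (GRCm38 build and GENCODE vM21, as for each position given here). Its counts were 240 and 273 in the young pools and 144 and 113 in the old pools, which correspond to 16.5 and 18.1 CPM in young and to 10.9 and 9.24 CPM in old ISCs. Both old pools lay below both young pools, as they did for 23.6% of all genes tested. The log2 fold change was -0.78 (standard error, SE, 0.19, 95% interval -1.18 to -0.38, FDR = 0.034 by edgeR), a ratio of 0.582 between old and young. Irf1 ranked 240 by p among the 13692 genes, of which 309 were called. The call was lost with DESeq2 (log2 fold change -0.78, FDR = 0.095), with offsets for GC content and length (-0.72, FDR = 0.070) and in 3 of the 4 fits that left out 1 pool. These were the fits without ISC_2mth replicate 1 (log2 fold change -0.84, FDR = 0.071), without ISC_2mth replicate 2 (-0.72, FDR = 0.14) and without ISC_22mth replicate 2 (-0.67, FDR = 0.057). Without ISC_22mth replicate 1 it was -0.90 and the call was kept (FDR = 0.0071 by edgeR). Exons of Irf1 overlap those of Gm17334 on the opposite strand over 135 bp, 3.40% of its exonic length, and reads there cannot be told apart unless strand was used in counting.

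Irf2, the counterpart of Irf1 on shared sites, had the highest counts of the family and was not called with age. The gene is on chromosome 8 from 46739732 to 46847458 (plus strand). Counts were 484 and 408 in young and 473 and 400 in old pools, or 33.3 and 27.0 CPM against 35.7 and 32.7 CPM. The groups overlapped, as they did for 52.4% of all genes tested. The log2 fold change was 0.18 (SE 0.15, FDR = 0.57 by edgeR), with a 95% interval of -0.13 to 0.50 that leaves out any fall of the size measured for Irf1.

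The ratio of Irf1 to Irf2 counts within a library does not depend on how libraries are scaled against each other. It was 0.496 and 0.669 in the young pools and 0.304 and 0.283 in the old pools. Both old pools thus held fewer Irf1 reads per Irf2 read than both young pools. The ratio of Irf1 to Irf3 showed the same order, with 1.01 and 0.945 in young against 0.696 and 0.617 in old pools, as did Irf1 to Irf8, with 0.752 and 0.718 against 0.563 and 0.345. With 2 pools against 2, an exact two-sided permutation test cannot give a p below 0.33, so that these ratios are given without a test.

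As a share of all IRF counts, Irf1 took 16.8% (95% Wilson interval 15.0 to 18.9%) and 18.4% (16.5 to 20.4%) in young pools. In old pools its share was 11.4% (9.76 to 13.3%) and 9.89% (8.30 to 11.8%). The intervals of the old pools lay below those of the young pools. Irf2 took between 27.5% and 34.0% of IRF counts in young pools and 37.5% and 35.0% in old pools, and Irf9 took 7.72% and 7.41% in young against 11.2% and 9.11% in old pools. The share of Irf8 went from 20.3% to 28.7% between the old pools, a wider gap than that between the young pools, at 22.4% and 25.6%.

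**Figure D2:**
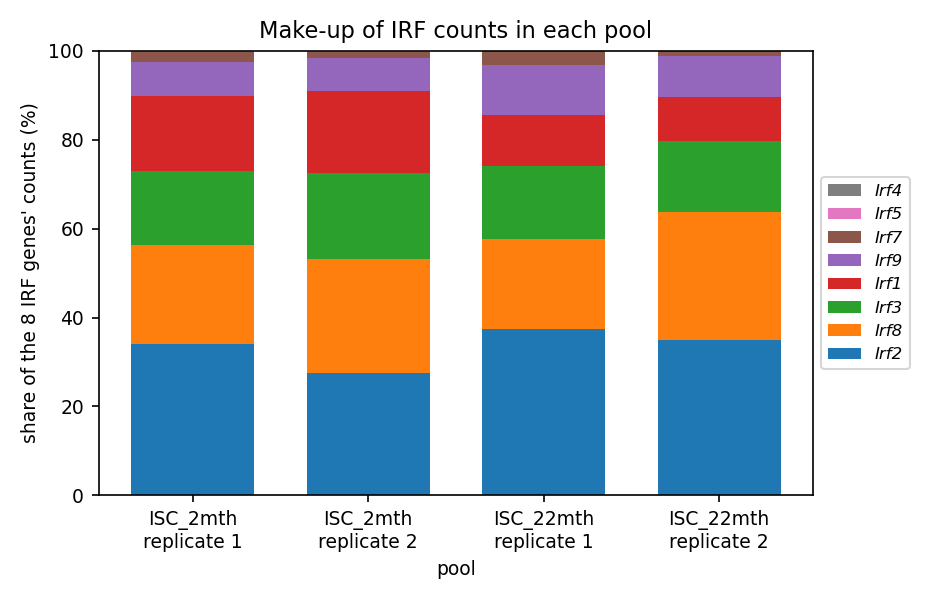
Share (%) of the summed counts of the 8 IRF genes that each gene took in each pool, stacked to 100%. The Irf1 segment narrows from 16.8% and 18.4% in the ISC_2mth pools to 11.4% and 9.89% in the ISC_22mth pools, and Irf4 and Irf5 are too small to be seen.

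Irf3, which is made in most cells and waits in the cytoplasm for phosphorylation by TBK1, was not called with age. The gene is on chromosome 7 from 44997648 to 45002848 (plus strand), and its exons overlap those of Bcl2l12 on the opposite strand over 88 bp. Counts were 237 and 289 in young and 207 and 183 in old pools, or 16.3 and 19.1 CPM against 15.6 and 15.0 CPM. Both old pools lay just below both young pools, and the difference was within the error, with a log2 fold change of -0.21 (SE 0.18, 95% interval -0.58 to 0.15, FDR = 0.58 by edgeR).

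Irf7, the inducible factor that amplifies type I interferon production and is itself a target of ISGF3, was scarce and differed more between the old pools than between the ages. The gene is on chromosome 7 from 141262706 to 141266481 (minus strand), and its exons overlap those of Phrf1 on the opposite strand over 45 bp. Counts were 30 and 22 in young and 40 and 13 in old pools, or 2.07 and 1.46 CPM against 3.02 and 1.06 CPM. The old pools held the highest and the lowest value of the 4, so that the groups overlapped. The log2 fold change of 0.22 had a SE of 0.52 and a 95% interval of -0.87 to 1.32 (FDR = 0.87 by edgeR), and the sign turned with the pool left out, from -0.72 without ISC_22mth replicate 1 to 0.78 without ISC_22mth replicate 2. The interval holds changes of Irf7 in either direction as large as that of Irf1.

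Irf5, which acts downstream of Toll-like receptors through MyD88 and is best known in myeloid and B cells, was close to absent. It lies on chromosome 6 from 29526625 to 29541871 (plus strand) and had 3 counts in each young pool and 1 in each old pool. Its exons overlap those of Tnpo3 on the opposite strand over 411 bp, 14.1% of its exonic length, so that even these reads are uncertain. All values of Irf5 were at or under a floor of 3 counts, which is worth 0.198 to 0.245 CPM here. No fold is given.

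Irf9, the DNA-binding subunit of ISGF3, was measured a little higher in old pools without passing the test. It lies on chromosome 14 from 55603571 to 55610030 (plus strand), and its exons overlap those of its neighbour Rnf31 on the same strand over 123 bp. Counts were 110 in each young pool and 142 and 104 in the old pools, or 7.58 and 7.28 CPM against 10.7 and 8.50 CPM. Irf9 was higher in each old pool than in each young pool, as were 24% of all genes tested. The log2 fold change was 0.37 (SE 0.22, 95% interval -0.10 to 0.84, FDR = 0.42 by edgeR), and leaving out single pools gave between 0.20 and 0.53.

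Irf8, a factor best known in myeloid and B cell development, was present in every pool and was not called with age. It lies on chromosome 8 from 120736358 to 120756694 (plus strand), no exon of another gene overlaps it, and 0 of the 7049 stretches of 50 nt in its transcripts occur in transcripts of other genes. Counts were 319 and 380 in young and 256 and 328 in old pools, or 22.0 and 25.1 CPM against 19.3 and 26.8 CPM. The old pools again held the lowest and the highest value. The log2 fold change was -0.03 (SE 0.17, 95% interval -0.39 to 0.33, FDR = 0.95 by edgeR). The partner of Irf8 in myeloid and lymphoid cells, Spi1, had 0 counts in all 4 pools, and Ptprc, the gene of the CD45 protein that the sort selected against, had 2 counts in all. Other leukocyte markers were present, with Lcp1 at between 448 and 517 counts and Itgam at between 148 and 254. Itgam and Ccr2 were called higher in old ISCs. The part of leukocytes in the values of Irf8 was not tested.

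Irf4, the other member that pairs with Spi1 and a factor of plasma cells and activated T cells, had 2 counts in ISC_2mth replicate 1 and 0 in the other 3 pools. It lies on chromosome 13 from 30749226 to 30766976 (plus strand). All values were under the floor of 3 counts.

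**Figure D3:**
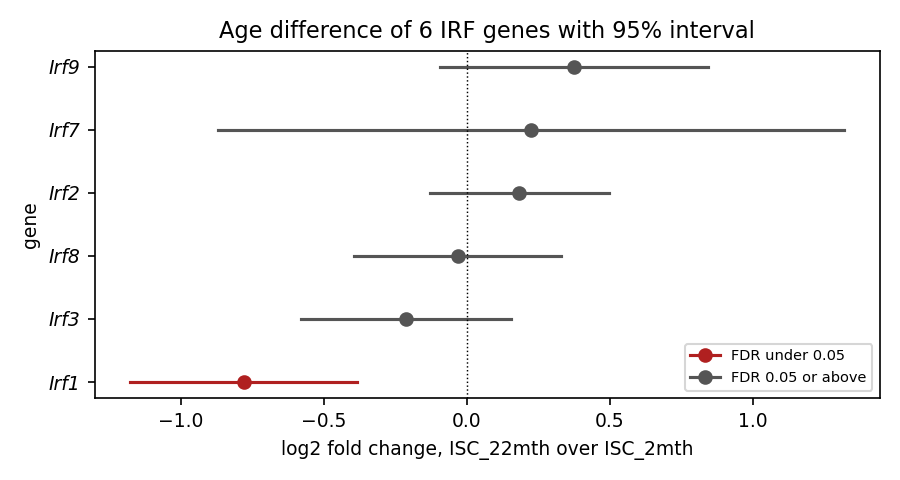
Log2 fold change of ISC_22mth over ISC_2mth (points) with 95% intervals (lines) for the 6 IRF genes that passed the filter, red for FDR under 0.05 and grey otherwise. Only the interval of Irf1, -1.18 to -0.38, leaves out 0 among these 6, and the interval of Irf7 is the widest.

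Levels of different members were compared per kb of exonic length. In young ISCs the order of the mean levels was Irf3 (5.15 CPM per kb), Irf1 (4.35), Irf2 (4.08), Irf8 (3.34), Irf9 (1.38), Irf7 (0.466), Irf5 (0.0697) and Irf4 (0.0140). Irf1 and Irf2 overlapped between pools, and Irf2 and Irf8 were only just apart (lowest Irf2 pool 3.65, highest Irf8 pool 3.56 CPM per kb). In old ISCs the order was Irf2 (4.63), Irf3 (4.45), Irf8 (3.27), Irf1 (2.53), Irf9 (1.79) and Irf7 (0.541 CPM per kb), with Irf5 at 0.0271 and Irf4 at 0. Irf1 thus stood in place 2 in young and in place 4 in old ISCs, although its higher old pool (2.74) lay at the lower old pool of Irf8 (2.74 CPM per kb). Irf2 and Irf3 overlapped in old pools, and the order of the 8 genes in each age was the same when the longest transcript of each gene replaced the exonic length.

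The genes around the IRFs were described by lists of symbols, which together held 146 genes other than the IRF members. Of these, 99 were tested, 5 (5.05%) were called higher in old ISCs and 0 were called lower. Among all genes tested, 1.63% were called higher and 0.628% lower. The 5 were Tlr3, Casp1, Oasl2, Ifi44 and Samd9l. At an unadjusted p under 0.05, 27 of the 99 were higher and 2 lower, against 9.26% and 7.65% of all genes. These counts are a description, since 11 of the 99 passed the filter only through ISC_22mth replicate 1, among them 1 of the 5 called (Ifi44) and 8 of those at an unadjusted p under 0.05. DESeq2 called 1 of the 99 and 197 of all genes, and the likelihood ratio test of edgeR 14 and 611.

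Of 21 interferon genes, 20 had 0 counts in every pool, among them Ifnb1, Ifng, Ifnl2 and Ifnl3. Ifnk was the exception, with between 8 and 17 counts and no call (log2 fold change -0.12, SE 0.74). All 6 receptor chains of type I, II and III interferons passed the filter and 0 were called by edgeR's quasi-likelihood test, voom or DESeq2 (0 at an unadjusted p under 0.05), with a median log2 fold change of 0.14. Ifngr2 and Ifngr1, receptor chains of interferon gamma and the highest of the group, had log2 fold changes of -0.04 (SE 0.14) and 0.14 (0.14). A count of 0 allows up to 3 counts per library for each of the other interferon genes, and reads of those that share sequence may have been lost in counting, as Ifnl2 and Ifnl3 share 31.7% and 38.8% of their stretches of 50 nt with other genes.

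Among the JAK and STAT genes 0 of 6 were called by edgeR's quasi-likelihood test, voom or DESeq2 (1 at an unadjusted p under 0.05), with a median log2 fold change of 0.15. Stat2, a subunit of ISGF3, had a log2 fold change of 0.15 (SE 0.24). The kinase genes with the highest counts were Jak1, at 0.22 (SE 0.13), and Jak2, at 0.10 (0.16).

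Of 27 genes of sensors, adaptors and kinases upstream of Irf3, Irf5 and Irf7, 20 were tested and 1 was called higher (5%, against 1.63% of all genes), with 6 at an unadjusted p under 0.05, all of them higher. The called gene was Tlr3, the endosomal receptor for double-stranded RNA that signals to Irf3. Its counts were 339 and 305 in young and 446 and 409 in old pools (23.4 and 20.2 against 33.7 and 33.4 CPM). Tlr3 rose by a log2 fold change of 0.63 (SE 0.15, FDR = 0.031 by edgeR), and 7.32% of its exonic length overlaps Gm45542 on the opposite strand. The log2 fold change was 0.62 without ISC_22mth replicate 1 and 0.63 without ISC_22mth replicate 2. Tlr3 was called in 9 of 12 alternative fits, and the call was lost without ISC_2mth replicate 1 (log2 fold change 0.73, FDR = 0.053) and without ISC_2mth replicate 2 (0.52, FDR = 0.20). Tbk1 and Ikbke, the kinases of Irf3 and Irf7, had log2 fold changes of -0.03 (SE 0.16) and -0.19 (0.21). Tlr7, Tlr8 and Tlr9, the endosomal receptors that act through Irf5 and Irf7 in immune cells, had at most 1 count in any pool. Trim25 and Traf6, the most abundant of the group, had log2 fold changes of 0.28 (SE 0.14) and 0.33 (0.13) and were not called.

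Of 10 partners and cofactors, 6 were tested and 0 called by edgeR's quasi-likelihood test, voom or DESeq2 (1 at an unadjusted p under 0.05, Irf2bpl). Irf2bp2, a corepressor that binds Irf2, had 2905 and 2832 counts in young and 3220 and 2538 in old pools, with a log2 fold change of 0.22 (SE 0.12, FDR = 0.36 by edgeR), and 20.5% of its exonic length overlaps Gm26759 on the opposite strand. Irf2bpl and Irf2bp1 had log2 fold changes of 0.72 (SE 0.34) and -0.02 (0.22). The acetyltransferases Crebbp and Ep300, coactivators of Irf3 among many others, had log2 fold changes of -0.10 (0.11) and -0.04 (0.11). Of 15 inhibitors of interferon signalling, 13 were tested, 0 were called by edgeR's quasi-likelihood test, voom or DESeq2 (3 at an unadjusted p under 0.05) and 1 by the likelihood ratio test, and 5 of the 13 had a positive log2 fold change. Ptpn11 and Pias1, the most abundant inhibitors in the mean over both ages, had log2 fold changes of -0.37 (SE 0.16) and -0.18 (0.15). Ptpn11 was called lower by edgeR without ISC_22mth replicate 1 (log2 fold change -0.59, FDR = 0.028) and was at -0.18 (FDR = 0.63) without ISC_22mth replicate 2. Ptpn2, named here after its values were seen, was above both in old ISCs (32.4 CPM against 26.5 CPM for each), with a log2 fold change of 0.45 (SE 0.15, FDR = 0.12 by edgeR).

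IRF1 targets, genes of antigen processing, caspases and cytokines that IRF1 is known to activate, had mostly positive fold changes in old ISCs, in which Irf1 was lower. Of 30 listed, 19 were tested, 1 was called higher (5.26%, against 1.63% of all genes), 0 were called lower and 17 of 19 had a positive log2 fold change (89.5%, against 49.5%). Their median was 0.34, against 0.00 over all genes tested, and 2 of the 19 passed the filter only through ISC_22mth replicate 1. Without that pool the median was 0.22 over 17 targets, and without ISC_22mth replicate 2 it was 0.37. Scaling by total counts gave a median of -0.14, or 0.36 relative to the median over all genes. The likelihood ratio test called 4, and 611 of all genes. The offsets for GC content and length left 0 called, against 125 higher and 43 lower among all genes. Casp1, the protease that matures interleukin-1 beta and interleukin-18, rose from 39.3 and 46.4 CPM in young to 61.9 and 68.7 CPM in old pools. Its log2 fold change was 0.61 (SE 0.13, FDR = 0.022 by edgeR), it was 0.68 without ISC_22mth replicate 1 and 0.53 without ISC_22mth replicate 2, and it was called in 10 of 12 alternative fits. The call was lost without ISC_2mth replicate 1 (log2 fold change 0.49, FDR = 0.27). The most abundant targets that were not called were Psme1, a proteasome activator subunit, at 0.16 (SE 0.13), and Tnfsf10 (TRAIL), at 0.28 (0.12). Many of these genes respond to other factors too.

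Targets of Irf9 within ISGF3, the classical interferon-stimulated genes, had mostly positive fold changes in old ISCs, and these rested on 1 old pool. Of 41 listed, 36 were tested, 3 were called higher (8.33%, against 1.63% of all genes), 0 were called lower and 33 of 36 had a positive log2 fold change (91.7%, against 49.5%), with a median of 0.51. These values are a description, as 8 of the 36 passed the filter only through ISC_22mth replicate 1 and so had to be higher there. With at least 10 counts in every library, the median was 0.37 over 25 targets and 1 was called. Over all genes that fit called 174 higher and 75 lower. Without ISC_22mth replicate 1 the median was 0.00 over the 28 targets that then passed the filter, whereas without ISC_22mth replicate 2 it was 0.83. DESeq2 called 0 of the 36 and 197 of all genes. At an unadjusted p under 0.05, edgeR found 16 of the 36, against 16.9% of all genes. Of these 16, 7 were targets that entered only through ISC_22mth replicate 1. Set against the mean of the young pools, the median of the 35 targets other than Irf7 was 0.76 on the log2 scale in ISC_22mth replicate 1 and 0.00 in ISC_22mth replicate 2 (0.5 CPM added to each value). ISC_22mth replicate 1 was above ISC_22mth replicate 2 in 34 of these 35 targets, 8 of which owed their place to that pool, and in 49.5% of all genes tested. Over the 26 targets above 1 normalized CPM in a young pool, a selection chosen after the data were seen that neither old pool enters, it was above in 25, against 49.4% of all genes so selected, with medians of 0.66 and 0.03.

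Oasl2, an antiviral protein of the oligoadenylate synthetase family, had 133 and 126 counts in young and 863 and 155 in old pools. It was called (log2 fold change 2.16, SE 0.43, FDR = 0.011 by edgeR), and the log2 fold change was 0.54 (FDR = 0.23) without ISC_22mth replicate 1. Ifi44, a protein induced by type I interferon, had 8 and 3 counts in young and 224 and 12 in old pools (log2 fold change 4.57, SE 0.87, FDR = 0.0091 by edgeR), and was under the filter without ISC_22mth replicate 1. Samd9l, an inhibitor of translation in virus-infected cells, had 167 and 78 counts in young and 307 and 160 in old pools (log2 fold change 1.13, SE 0.29, FDR = 0.049 by edgeR). Samd9l was called in 5 of 12 alternative fits, and neither without ISC_22mth replicate 1 (log2 fold change 0.66, FDR = 0.11) nor without ISC_2mth replicate 2 (FDR = 0.17). Trim25 and Lgals3bp, the most abundant targets, had log2 fold changes of 0.28 (SE 0.14) and -0.25 (0.13) and were not called.

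The IRF members were set beside these targets in each old pool, without a test. Against the young mean, on the same log2 scale, Irf7 was at 0.65 in ISC_22mth replicate 1 and at -0.52 in ISC_22mth replicate 2. Irf9 was at 0.50 and 0.18 in the same pools. Irf1 was lower in both, at -0.64 and -0.87, and so was Irf3, at -0.17 and -0.23. Irf8 lay at -0.27 in ISC_22mth replicate 1 and at 0.19 in ISC_22mth replicate 2, and Irf2 at 0.25 and 0.12. The pool with the highest interferon-stimulated genes was thus also the pool with the most Irf7 and Irf9, with Irf1 below both young pools there too. The same pool held the highest summed level of differentiated epithelial markers. The 14 markers summed to 3442 CPM in ISC_22mth replicate 1, to 1981 CPM in ISC_22mth replicate 2 and to 1871 and 2149 CPM in the young pools. Lyz1 of Paneth cells had 9910 counts in ISC_22mth replicate 1 and between 2485 and 4509 elsewhere. Of the 14 markers, 5 were called higher with age (35.7%, against 1.63% of all genes). All 14 had a positive log2 fold change, against 49.5% of all genes, and some were higher in both old pools. Fabp1 of enterocytes went from 18.1 and 16.6 CPM in young to 117 and 59.7 CPM in old pools, and Sis from 32.1 and 35.0 to 103 and 71.0 CPM. Irf1, Casp1 and Tlr3 likewise differed from the young pools in both old pools. The part of these cells in the values of Irf1, Irf7, Irf9, Tlr3, Casp1 and the targets was not tested.

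**Figure D4:**
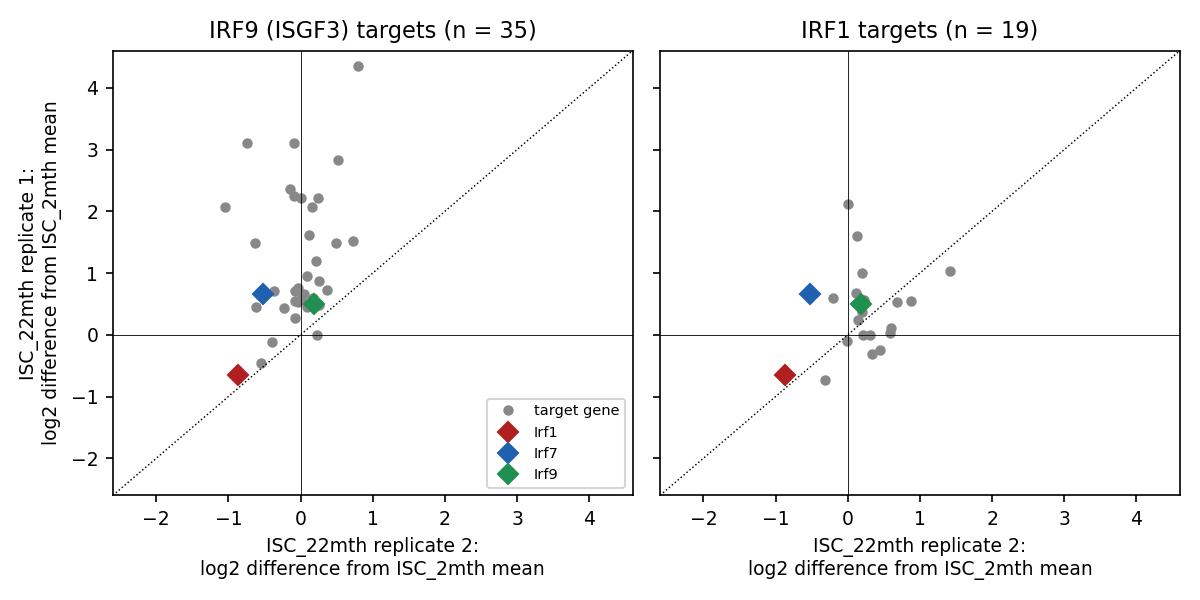
Log2 difference of each target gene (grey points) from the mean of the ISC_2mth pools in ISC_22mth replicate 2 (x axis) and ISC_22mth replicate 1 (y axis), for 35 Irf9 (ISGF3) targets on the left and 19 IRF1 targets on the right, with Irf1, Irf7 and Irf9 as diamonds and a dotted line where the pools are equal. Of the ISGF3 targets 34 of 35 lie above the dotted line, 8 of which passed the filter only through the pool on the y axis, and of the IRF1 targets 8 of 19 do, 2 of which passed in that way. Of the targets above 1 normalized CPM in a young pool, 25 of 26 and 5 of 16 lie above it, and Irf1 lies below 0 on both axes.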

How the data were processed

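RNA of SM6-sorted ISCs was sequenced in 4 libraries, 2 per age, each from a pool of 5 animals. The authors trimmed reads (Trimmomatic 0.30), aligned them to GRCm38 (STAR 2.4.2a), counted reads in exons of GENCODE vM15 genes with featureCounts, and deposited these raw counts per gene. Whether counting used strand, and how multiply aligned reads were handled, is not given in the sources used here.

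The low-count filter required a gene to exceed both 5 reads and 1 CPM of total counts, before TMM scaling, in 1 or more pools, whereas levels are given as TMM-normalized CPM. Ages were compared with edgeR 4.0.16 (R 4.3.3; TMM, glmQLFit, glmQLFTest) and Benjamini-Hochberg adjustment over all genes kept, at FDR under 0.05. Standard errors came from the log2 fold change and the F value. The 12 alternative fits included limma 3.58.1 (voom with sample quality weights), which the study's methods name, and DESeq2 1.42.0. A further 4 fits each left out 1 pool, where the lone pool of an age is assumed to vary like the others. The fits were tested on simulated counts. Depth was between 11662654 and 15975698 counts, and 3 counts corresponded to between 0.198 and 0.245 CPM.

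Pools of 1 age differed by more than sampling noise (chi-square per gene 9.42 in ISC_2mth and 7.11 in ISC_22mth), and are separate pools of animals. Positions, lengths and GC content came from GENCODE vM21 (GRCm38), in which 47976 of 52459 symbols matched 1 gene. Members and lists were chosen with earlier results of these data known. Besides the 8 members, the text names from each list the called genes (up to 6), the 2 most abundant uncalled ones, and proteins that join an IRF. Some genes of the lists are not reported here.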

Additional observations from a re-analysis of the deposited data

How the results depend on the processing

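Irf1 kept its direction in all 12 alternative fits and all 4 fits without 1 pool. The number of IRF members called was 1 in 9 of the 12 alternatives, 0 with DESeq2 and with offsets for GC content and length, and 3 (Irf1, Irf3 and Irf8, all lower) with total counts. Without 1 pool it lay between 0 and 1. Of the interferon pathway genes tested (99 unless stated), 1 was called with DESeq2, 14 with the likelihood ratio test, 25 with total counts (8 higher, 17 lower), 17 of 116 without a filter, 3 of 82 with at least 10 counts in every library, 2 of 98 with the offsets, and between 4 (of 88) and 23 without 1 pool. Over all genes these fits called 197 with DESeq2, 611 with the likelihood ratio test, 4632 with total counts, 554 without a filter, 168 with the offsets and between 151 and 710 without 1 pool. The fit with at least 10 counts in every library called 249 of 11818 genes. DESeq2, the likelihood ratio test and total counts each tested 13692 genes. The number tested was 24764 without a filter and 13236 with the offsets. With total counts the log2 fold changes of Irf2, Irf7 and Irf9 became -0.32, -0.28 and -0.12. These values are 0.18, 0.21 and 0.38 above the shift of all genes. The log2 fold change of Irf8 became 0.12 with the offsets. Without 1 pool it ranged from -0.28 to 0.19, and that of Irf7 from -0.72 to 0.78. The cause of these differences was not tested.

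Replicate numbers do not pair animals across ages, and the deviations of same-numbered pools had a correlation of -0.00015. With the replicate block, 624 genes, 12 pathway genes and 1 IRF member were called. Depth limits Irf4 and Irf5, with at most 3 counts in any pool.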

Other observations

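The genes whose pattern over the 4 pools was most like that of Irf1, by the root mean square difference of log2 CPM after centring each gene on its own mean (genes with a mean of at least 5 CPM), were 2610037D02Rik, Cbx2 and Gm37159, at between 0.040 and 0.042. Their log2 fold changes with age were -0.76, -0.78 and -0.81, and none of the 3 was called by edgeR (FDR = 0.059, 0.12 and 0.055). For Irf7, the nearest patterns were those of Clps, Inpp1 and Gm14851, at between 0.057 and 0.105. With 4 pools and 13692 genes, such likeness is a description of these libraries.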
